A study of Homo sapiens with 4 samples.

Results

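Of 13165 genes listed for TPC1 cells, 11 are entries for small RNAs: 6 H/ACA box small nucleolar RNAs (SNORA23, SNORA57, SNORA58, SNORA73A, SNORA74A and SNORA81), 1 C/D box small nucleolar RNA (SNORD17) and 4 small Cajal body-specific RNAs (SCARNA5, SCARNA9, SCARNA10 and SCARNA12). They were chosen by name alone, as symbols starting with SNORA, SNORD, SCARNA or RNU, or with MIR and a number and not ending as a host gene. No entry of the RNU class (0 genes) or of the MIR class (0 genes) met this rule among the genes read here. TPC1 cells come from a human papillary thyroid carcinoma and are grown as an established line. RNA came from TPC1 cells carrying the empty vector (TPC1-Vector) and from TPC1 cells overexpressing C1orf106, now named INAVA (TPC1-C1orf106), with 2 libraries in each of the 2 groups. The study's methods describe transfer of the C1orf106 cDNA by a retrovirus, and both stable lines had been selected with 0.5 μg/mL puromycin for 2 weeks, so the controls carry the vector and its resistance gene too, and nothing in the labels says whether the libraries of a group came from separate cultures. Each gene has 1 value per group in FPKM, the fragments per 1000 bases of transcript and 1000000 mapped fragments. The libraries of a group were thus combined by the authors, no spread between replicates can be given, and no difference below has a replicate check or a p-value. The number of fragments behind a value is unknown. C1orf106 itself measured 7.96 FPKM in the vector cells against 123 FPKM in the overexpressing ones. Of the thyroid and epithelial markers, 4 were read here (TPC1-Vector first, here and in every later pair of values). PAX8 was at 60.1 and 55.7 FPKM and FOXE1 at 5.26 and 5.89 FPKM. KRT8 was at 23.4 and 10.5 FPKM, more than 2-fold lower in TPC1-C1orf106, and KRT18 went the other way, at 140 and 212 FPKM. PAX8, KRT8 and KRT18 each shared its listed position with 1 other gene, and the positions of KRT8 and KRT18 are both 55715 bases long. TG, TSHR, NKX2-1, KRT19 and EPCAM were looked for too and were not among the genes read here.

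Small nucleolar RNAs guide chemical modification of ribosomal RNA in the nucleolus. C/D box RNAs direct 2′-O-methylation and H/ACA box RNAs direct pseudouridylation, while a few, such as SNORA73A (also called U17), serve the cleavage of the ribosomal RNA precursor instead. Small Cajal body-specific RNAs do the same for the small nuclear RNAs of the spliceosome, and several carry both kinds of box. In human cells most of these RNAs lie in introns of host genes and are cut out of the spliced intron. The mature forms have no poly(A) tail.

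All 11 entries were listed at a position identical to that of another listed gene. Over the table, 19.8% of the other genes share their position with at least 1 gene. The 11 positions are distinct and hold 18 other listed genes, 1 for each of 6 entries, 2 for each of 4 entries and 4 for SNORA57. The position of SCARNA12 is 5402 bases long and that of SCARNA9 is 68707 bases long, whereas the RNAs themselves run from 137 nt (SNORA58) to 353 nt (SCARNA9) in GENCODE release 29, on GRCh38. The RNA thus fills from 0.287% (SNORA23) to 4.998% (SCARNA12) of the position given for it. In GENCODE each of the 11 RNAs lies inside its listed position and inside a gene on its own strand that is listed at that position. For 7 of them every host transcript that spans the RNA has it in an intron. For the other 4 (SCARNA12, SNORA57, SNORA73A and SNORA81), at least 1 annotated host transcript also overlaps the RNA with an exon. The listed positions are thus those of the host loci and not of the small RNAs.

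**Figure D1:**
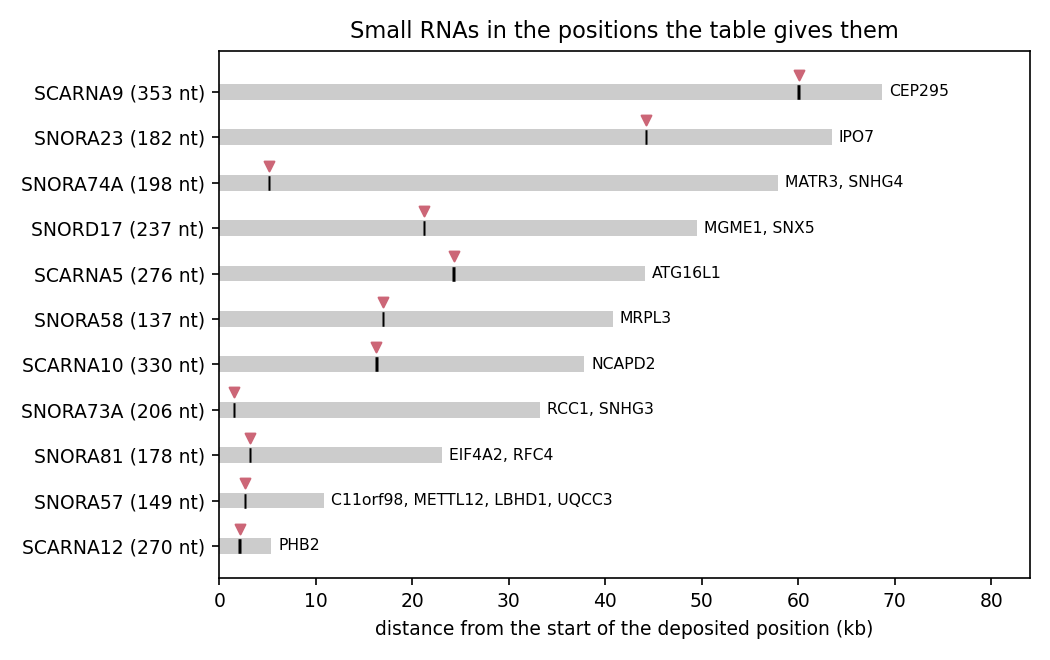
Each grey bar is the position that the table gives an entry, drawn to scale from its start (horizontal axis, kb), with the annotated small RNA in black under a red mark and the other genes listed there at the right. The bars are 5402 to 68707 bases long and the RNAs 137 to 353 nt.

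The 11 RNAs are long for their kind. GENCODE names 147 genes SNORA, with a median length of 134 bases, and 74.8% of these are shorter than SNORA58, the shortest entry. The 278 genes named SNORD have a median of 82 bases, and SNORD17 has 237. The 25 genes named SCARNA have a median of 140 bases, below the shortest of the 4 entries (270 bases, SCARNA12). RefSeq on GRCh38.p14 gives SNORA58 as 236 bases, and for the other entries its length is within a few bases of that in GENCODE.

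The sequences of 5 entries are shown, from GENCODE release 29, written as DNA from 5′ to 3′. SNORA57 and SNORA58 are listed at 0 in a group, SNORA73A and SCARNA12 are called at 2-fold in opposite directions, and SNORD17 has the highest value of the entries in TPC1-C1orf106. Capitals mark ACA standing 3 bases before the 3′ end in the H/ACA entries, and TGATGA (the core of the C box) and CTGA (the D box) in the others.
SNORA57: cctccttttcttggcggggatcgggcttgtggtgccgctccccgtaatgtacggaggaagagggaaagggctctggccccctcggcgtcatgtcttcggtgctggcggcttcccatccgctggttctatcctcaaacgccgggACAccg
SNORA58: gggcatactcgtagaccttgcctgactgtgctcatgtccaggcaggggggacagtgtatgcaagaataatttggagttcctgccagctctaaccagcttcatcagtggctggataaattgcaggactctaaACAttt
SNORA73A: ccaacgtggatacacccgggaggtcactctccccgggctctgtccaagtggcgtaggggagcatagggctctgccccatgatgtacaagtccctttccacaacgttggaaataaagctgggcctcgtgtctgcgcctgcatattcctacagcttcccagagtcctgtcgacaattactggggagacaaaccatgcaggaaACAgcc
SCARNA12: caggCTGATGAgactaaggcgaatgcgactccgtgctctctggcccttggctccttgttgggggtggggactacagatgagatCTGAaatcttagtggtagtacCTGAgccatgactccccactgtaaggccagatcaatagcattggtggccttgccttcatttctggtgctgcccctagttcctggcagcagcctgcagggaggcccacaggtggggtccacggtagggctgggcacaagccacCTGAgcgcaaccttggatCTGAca
SNORD17: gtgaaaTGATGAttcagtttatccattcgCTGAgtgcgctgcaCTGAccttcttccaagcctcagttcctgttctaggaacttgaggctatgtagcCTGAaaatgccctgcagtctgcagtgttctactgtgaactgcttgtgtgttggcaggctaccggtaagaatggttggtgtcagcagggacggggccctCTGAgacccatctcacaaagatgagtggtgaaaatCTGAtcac

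These lie on GRCh38 at chr11:62665422-62665570 (SNORA57, plus strand), chr3:131479097-131479233 (SNORA58, minus strand), chr1:28507366-28507571 (SNORA73A, plus strand), chr12:6967337-6967606 (SCARNA12, minus strand) and chr20:17962710-17962946 (SNORD17, minus strand). ACA stands 3 bases before the end in 4 of the 6 H/ACA entries, SNORA23, SNORA57, SNORA58 and SNORA73A. SNORA81 has none near its end. Over GENCODE, 75.7% of 148 SNORA transcripts end in this way (2.03% on the reverse strand), against 1.72% of 11095 other transcripts of 137 to 353 nt (3.01% on the reverse strand). TGATGA occurs in SNORD17 and in all 4 SCARNA entries and in 0 of the SNORA entries. It occurs in 77.1% of 284 SNORD transcripts, in 41.7% of 24 SCARNA transcripts and in 12.9% of the other transcripts of these lengths (on the reverse strand 1.06%, 0 and 9.61%). The last CTGA leaves from 2 bases (SCARNA12) to 5 bases (SCARNA10) to the 3′ end in those 5 entries. CTGA anywhere is no mark of the class, since 81.6% of the other transcripts hold it and 76.6% on the reverse strand. In SCARNA12 the first CTGA overlaps TGATGA.

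Among the H/ACA entries, SNORA57 had by far the highest value, 1573700 FPKM in TPC1-Vector, and it was listed at 0 in TPC1-C1orf106. The other 5 were between 0 and 51.9 FPKM. SNORA81 was at 51.9 and 39.8 FPKM, a log2 fold change of -0.38. This and all later log2 fold changes are of FPKM + 0.5, TPC1-C1orf106 over TPC1-Vector, which understates the change of low values. SNORA73A, the ribosomal RNA processing RNA, was at 35.1 and 16.2 FPKM, a log2 fold change of -1.09. SNORA23 was at 9.65 and 15.9 FPKM, a log2 fold change of 0.69. These entries went in both directions, and of the 3 only SNORA73A reached 2-fold.

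SNORA74A (also called U19) was at 11.5 FPKM in TPC1-Vector and listed at 0 in TPC1-C1orf106. SNORA58 went the other way, listed at 0 in TPC1-Vector and at 2.93 FPKM in TPC1-C1orf106. No fold is given against a value of 0. SNORA58, like SNORA73A, has a close annotated copy with which fragments can be shared, so the levels of both are uncertain to that extent. Spread over the 137 bases of SNORA58 in GENCODE, 2.93 FPKM equals 0.402 fragments per 1000000 mapped. Over its 236 bases in RefSeq the same value would equal more, and the number of fragments depends on the unknown depth.

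SNORA57 (also called U99) stood first of all 13165 genes in TPC1-Vector. The next highest value was 4323 FPKM, for the ribosomal protein gene RPS2, so that SNORA57 stood 364-fold above it. The highest value in TPC1-C1orf106 was again that of RPS2, 4135 FPKM. If the fragments lay over all 149 annotated bases, 1573700 FPKM would equal 234481 fragments per 1000000, or 23.4% of the mapped fragments of TPC1-Vector. By the same conversion the highest of the other entries, SNORD17 in TPC1-Vector, comes to 26.3 fragments per 1000000. The length by which the authors' program divided is not given in the sources used here. SNORA57 made up 77.4% of the sum of all FPKM values in TPC1-Vector, 2033093 FPKM. Without it the sum came to 459393 and 467066 FPKM, so the sums of all other genes were close. Scaling each column to the same sum moved the median log2 ratio of the other genes to 2.13, against -0.020 with SNORA57 left out of the sum.

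The 4 genes listed with SNORA57 (chromosome 11, 62662816 to 62673690) showed no such difference. METTL12, now CSKMT, which encodes a mitochondrial methyltransferase and is annotated over SNORA57 on the same strand, was at 2.69 and 2.63 FPKM. UQCC3, an assembly factor of respiratory complex III, was at 7.66 and 7.91 FPKM. C11orf98 was at 52.02 and 54.9 FPKM and LBHD1 at 1.38 and 1.55 FPKM. Their log2 fold changes lay between -0.028 and 0.12.

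The SCARNA entries had low values, from 0.440 to 9.63 FPKM. SCARNA12 (also called U89) was at 3.37 and 9.63 FPKM, a log2 fold change of 1.39. SCARNA10 (also called U85), which guides modification of the U5 small nuclear RNA, was at 2.68 and 0.675 FPKM, a log2 fold change of -1.44. Both lie on the short arm of chromosome 12 and went in opposite directions. SCARNA5 (also called U87) was at 0.916 and 0.440 FPKM, a log2 fold change of -0.59. As listed it was 2.08-fold lower in TPC1-C1orf106, and the added 0.5 FPKM brought it under 2-fold. SCARNA9, which guides methylation of the U2 small nuclear RNA, was at 0.532 and 0.449 FPKM. Its mean, 0.491 FPKM, lies just under the 0.5 FPKM required below, and that of SCARNA5, 0.678 FPKM, just above it. At full annotated length the 4 RNAs came to 0.122 to 2.60 fragments per 1000000.

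SNORD17, the only C/D box entry of the nucleolar class, was at 111 and 100.3 FPKM, a log2 fold change of -0.15. It had the steadiest value of the entries with a mean over 0.5 FPKM. Apart from SNORA57 in TPC1-Vector, it was the highest entry in both groups.

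**Figure D2:**
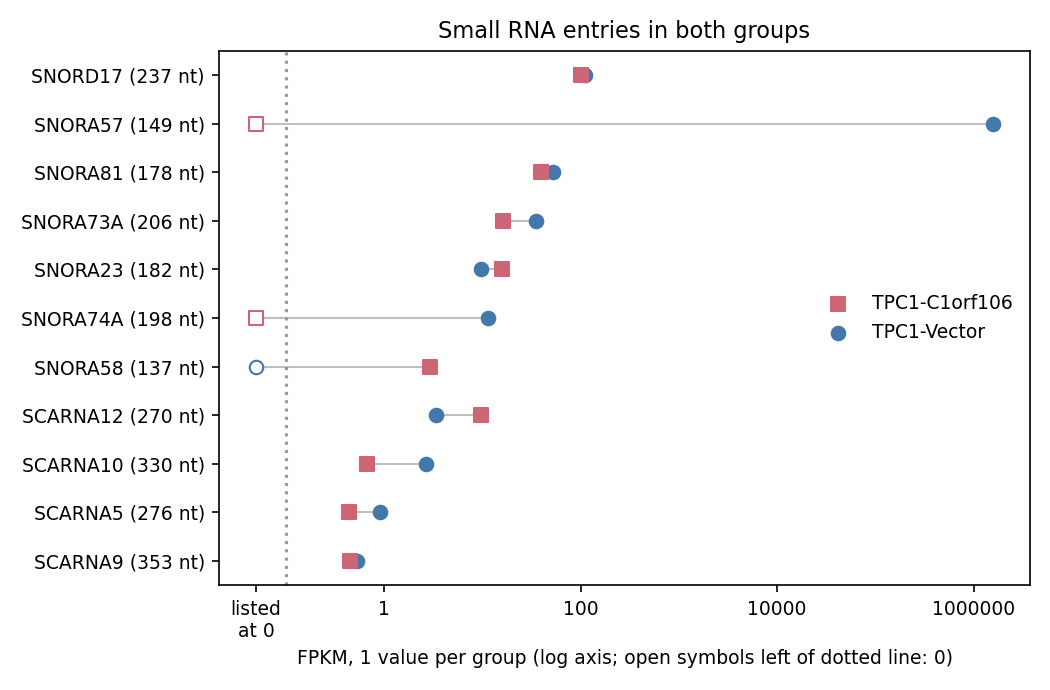
Value of each entry in FPKM (horizontal log axis, 1 value per group), circles for TPC1-Vector and squares for TPC1-C1orf106, with open symbols left of the dotted line for values listed at 0. SNORA57 stands alone at 1573700 FPKM, and the highest of the others is SNORD17 at 111 FPKM.

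Values were higher in TPC1-Vector for 8 of the 11 entries and higher in TPC1-C1orf106 for 3. A difference of at least 2-fold, at a mean of at least 0.5 FPKM, is called here. Of all 12305 genes at that mean, 0.61% were called higher and 0.244% called lower in TPC1-C1orf106, 0.853% in all. Of the 11 entries 10 had that mean, and 2 were called higher (SCARNA12 and SNORA58) and 4 lower (SNORA57, SNORA73A, SNORA74A and SCARNA10). SNORA57, SNORA58 and SNORA74A reached the mean through 1 group only and so had to differ. Among the 7 entries at that mean with values above 0 in both groups, 1 was called higher and 2 lower. SCARNA5, 2.08-fold lower as listed, missed the call through the added 0.5 FPKM. The median log2 fold change was -0.48 over the 10 entries, with values of 0 entered as 0.5, and -0.38 over those 7, against 0.0033 over all 12305 genes. In size, regardless of sign, the median over the 7 was 0.69, against 0.12 over all genes. At full annotated length, 7 of the 11 entries were under 3 fragments per 1000000 in both groups. The part of this low level in their differences was not tested. Since RNA was taken from many cells together, fewer cells with an RNA and less of it per cell cannot be told apart.

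**Figure D3:**
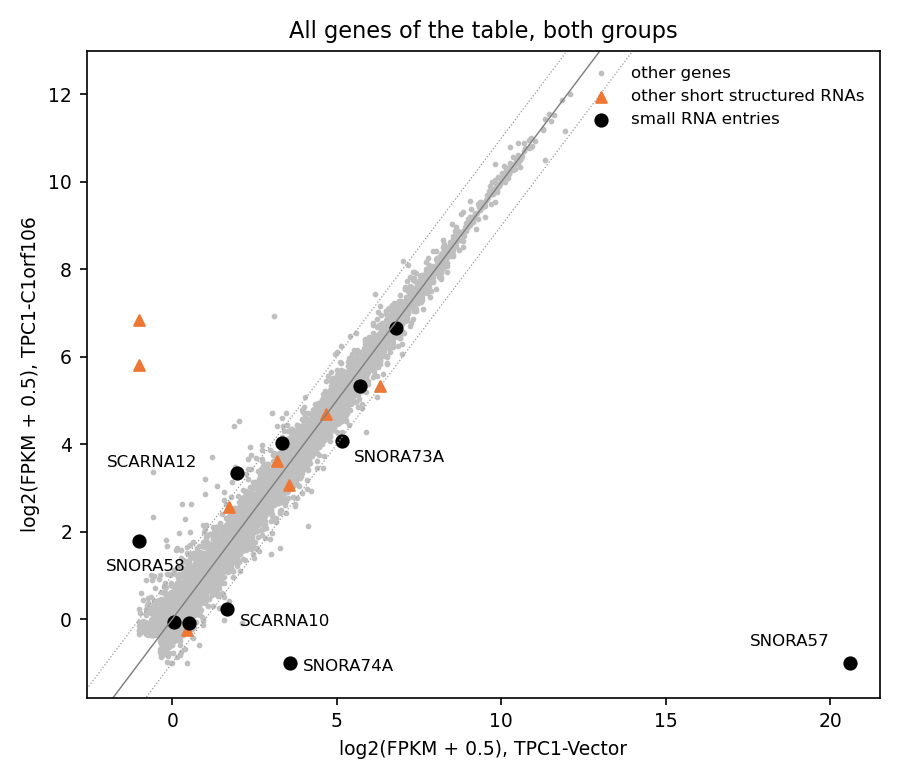
Level of each gene as log2(FPKM + 0.5) in TPC1-Vector (horizontal) and TPC1-C1orf106 (vertical), with the entries in black, other short structured RNAs as triangles and dotted lines at 2-fold. Of the entries, SNORA57 lies far to the right at 1573700 FPKM against 0, and 6 of the 10 with a mean of at least 0.5 FPKM lie beyond the lines. Of these, SNORA57, SNORA58 and SNORA74A are listed at 0 in a group and had to. Among the 7 above 0 in both groups 3 do, against 0.853% of all genes at that mean.

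The genes listed at the same positions differed less between the groups than their entries. Of the 18, 0 were called, a count near the 0.853% of all genes that were called, and their log2 fold changes ran from -0.28 (RFC4, a subunit of the clamp loader of DNA replication) to 0.12 (LBHD1). The median size of their change was 0.056, against 0.12 over all genes. SNORA73A shared its position (chromosome 1, 28505942 to 28539196) with RCC1, the exchange factor for Ran, at 67.1 and 62.3 FPKM, and with the noncoding host gene SNHG3, at 34.6 and 34.4 FPKM. In TPC1-Vector its value was 101% of that of SNHG3, and in TPC1-C1orf106 it was 47.2%. SNORA74A shared its position with SNHG4, at 13.4 and 11.4 FPKM, and with the nuclear matrix gene MATR3, at 124 and 125 FPKM. Where SNORA74A was listed at 0, the log2 fold change of MATR3 was 0.017 and that of SNHG4 was -0.22.

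The importin gene IPO7, host of SNORA23, was at 102 and 99.98 FPKM. MRPL3, a mitochondrial ribosomal protein gene and host of SNORA58, was at 111 and 114 FPKM. The translation factor gene EIF4A2, host of SNORA81, was at 160 and 171 FPKM, and SNORA81 came to 32.4% and 23.3% of it. These hosts of H/ACA entries all had higher values than their entry in both groups. PHB2, a prohibitin of the mitochondrial inner membrane that hosts SCARNA12, was at 190 and 195 FPKM, and SCARNA12 came to 1.78% and 4.95% of it. The condensin gene NCAPD2, host of SCARNA10, was at 92.7 and 84.2 FPKM. The autophagy gene ATG16L1, host of SCARNA5, was at 15.7 and 14.96 FPKM. The centriole gene CEP295, host of SCARNA9, was at 3.04 and 3.11 FPKM. All 4 SCARNA entries stayed below their hosts in both groups, and the opposite calls of SCARNA12 and SCARNA10 had no counterpart in PHB2 (log2 fold change 0.035) or NCAPD2 (-0.14). SNX5, a sorting nexin gene and host of SNORD17, was at 82.2 and 84.9 FPKM, below the entry, which came to 135% and 118% of it.

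Over the 9 pairs of an entry and a gene holding it on its strand with both above 0, the change of the entry was larger in size than that of the host in 9. The signs were alike in 5 of the 9 pairs. SNORA73A enters 2 of the pairs, with RCC1 and with SNHG3, alike in sign in both, so the 9 pairs hold 8 entries. Over the 8 of these pairs with an entry mean of at least 0.5 FPKM, which hold 7 entries, the median size of the difference in log2 fold change was 0.85. SNORA73A differed by -0.98 from RCC1 and by -1.08 from SNHG3, both larger in size than this median, so the median leans on its double entry. The difference was largest in size for SCARNA12 and PHB2, 1.35, and over all 9 pairs smallest for SCARNA9 and CEP295, 0.15. Whether a value comes from the mature RNA or from unspliced host RNA was not tested.

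**Figure D4:**
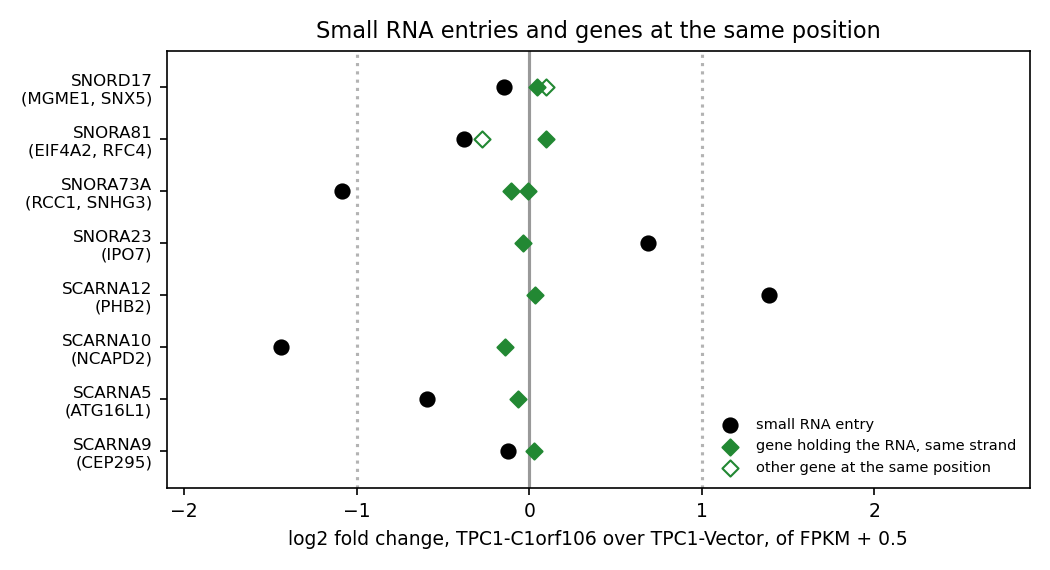
Log2 fold change of FPKM + 0.5 (horizontal axis, TPC1-C1orf106 over TPC1-Vector) for the 8 entries above 0 in both groups (circles) and for the genes at the same position (diamonds, filled where the gene holds the RNA on its strand). The diamonds stay between -0.28 and 0.094, while the circles run from -1.44 to 1.39.

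Differences were larger in size among short genes than among long ones, which is given as a description with no test. By the longest GENCODE transcript, known for 94.7% of the genes kept, 0.625% of 9600 genes over 2000 nt were called, 1.15% of 1657 genes between 1000 and 2000 nt, and 3.06% of 360 genes between 400 and 1000 nt. Of 24 genes of up to 400 nt other than the entries, 2 were called (8.33%), HIST1H2BK and RNVU1-4, of which RNVU1-4 was listed at 0 in TPC1-Vector and so had to differ. The median size of the change was 0.12 over 2000 nt, 0.16 between 400 and 1000 nt and 0.51 in these 24 genes. By GENCODE length, where SNORA58 has 137 bases against 236 in RefSeq, the mean FPKM of the entries tended to be lower for longer RNAs. The Spearman rho was -0.51 over the 11 entries and -0.44 without SNORA57. This is a description over entries that share libraries and depth. The SCARNA entries, 270 to 353 nt, are the longest and had means of at most 6.50 FPKM, so length and class cannot be told apart. FPKM itself also divides by length.

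A value of 0 was rare among the genes listed. Of 13165 genes, 14 were listed at 0 in a group, and of these 3 were entries. No gene was listed at 0 in both groups, so the rarity says nothing of genes left off the list. Only 5 of the 14 reached 1 FPKM in the other group, namely SNORA57, SNORA58 and SNORA74A with RNVU1-4 and RNVU1-20, variants of the U1 small nuclear RNA. Both RNVU1 entries were listed at 0 in TPC1-Vector and shared 1 position on chromosome 1, with RNVU1-4 at 114 FPKM and RNVU1-20 at 55.4 FPKM in TPC1-C1orf106. The other 9 were at most 0.868 FPKM in the other group. Near-identical copies of U1 can share fragments, so the split between these entries is uncertain.

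Of the other short structured RNAs, 8 were read. Unlike the 11 entries, 6 of them were listed at a position of their own. RNVU1-14 was at 79.6 and 39.8 FPKM, a log2 fold change of -0.99. RMRP, the RNA of the mitochondrial RNA processing endonuclease, was at 2.82 and 5.39 FPKM, a log2 fold change of 0.83. RN7SK, which holds back the elongation factor P-TEFb, was at 11.2 and 7.91 FPKM. RN7SL1, an RNA of the signal recognition particle, was at 24.8 and 25.4 FPKM, the steadiest of them. RN7SL2, its near copy, was at 8.57 and 11.8 FPKM. RPPH1, the RNA of ribonuclease P, was at 0.856 and 0.347 FPKM. These 6 went in both directions and 0 were called, near the 0.853% of all genes that were called. The other 2 of the 8, RNVU1-4 and RNVU1-20, were called higher. Both were listed at 0 in TPC1-Vector, reached the mean through 1 group only and so had to differ. RPPH1 and RNVU1-14 differed by just over 2-fold or more in FPKM as listed and missed the call through the added 0.5 FPKM.

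The proteins that build and use small RNAs are given beside all genes, of which 0.853% were called and whose median change in size was 0.12, so that a count of 0 in lists this short is near the share of all genes. Of 14 snoRNP and scaRNP proteins 0 were called, with a median size of 0.084, a median log2 fold change of 0.056 and a range from -0.32 (NOLC1, a nucleolar and Cajal body chaperone) to 0.22 (NOP10, of the H/ACA core). Fibrillarin (FBL), the methyltransferase of C/D particles, was at 97.5 and 99.4 FPKM, and dyskerin (DKC1), the pseudouridine synthase of H/ACA particles, was at 112 and 109 FPKM. WRAP53, which brings RNAs to Cajal bodies, was at 18.8 and 19.3 FPKM. For the core proteins of both particle classes, the log2 fold change of the mRNA was thus no larger in size than the 0.22 of NOP10. Protein was not measured. Of 28 snRNP and snRNA transcription proteins 0 were called, with a median of 0.047 and a median size of 0.095, and the highest was SMN1 (0.67), whose position is shared with 7 other genes. Of 14 miRNA processing and effector proteins 0 were called, with a median of -0.051, a median size of 0.067 and a range from -0.22 to 0.21.

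Host genes of snoRNAs and of miRNAs stood on either side of all genes in the size of their change. Of 41 snoRNA host genes 0 were called, again near the share of all genes, with a median log2 fold change of -0.0042 and a median size of 0.086, and only SNHG9 came near 2-fold, at 20.6 and 10.5 FPKM (-0.94). GAS5 was at 200 and 195 FPKM and SNHG1 at 58.3 and 59.0 FPKM. Of 10 genes named as miRNA hosts, 8 had a mean of at least 0.5 FPKM and 0 were called, with a median of 0.096 and a median size of 0.20, above the 0.12 of all genes. Of these 8 genes, 6 had higher values in TPC1-C1orf106. MIR22HG was at 9.84 and 13.3 FPKM and MIR155HG at 2.56 and 3.48 FPKM, the largest differences upward, and MIR100HG was at 4.23 and 3.40 FPKM. The miRNAs themselves were not read here.

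**Figure D5:**
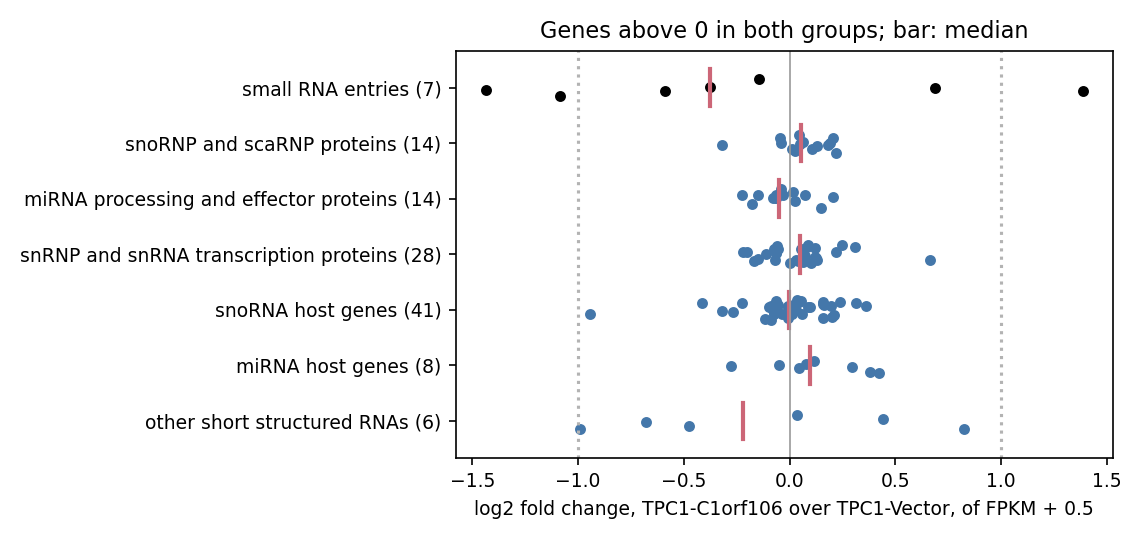
Log2 fold change of FPKM + 0.5 (horizontal axis, TPC1-C1orf106 over TPC1-Vector) for genes above 0 in both groups and with a mean of at least 0.5 FPKM, with the number plotted in brackets, a red bar at the median and dotted lines at 2-fold. The 7 small RNA entries run from -1.44 to 1.39, while the 14 snoRNP and scaRNP proteins run from -0.32 to 0.22.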

How the data were processed

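Per the labels, total RNA was extracted with Trizol for 4 libraries, and the study's methods name a kit for mRNA libraries where the labels name another. The submitters' processing notes name CASAVA, Cufflinks 2.1.1, Cuffdiff and hg38, and the annotation is not given in the sources used here. The authors deposited 1 FPKM value per gene and group. Their log2 ratio, p-value and q-value columns, also deposited, hold their own comparison and were not used. limma was not run because there is 1 value per group, so differences were described on log2(FPKM + 0.5) across all genes averaging 0.5 FPKM or more over the groups and called at 2-fold. Depth per library is unknown, so no counting interval can be given.

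Entries were compared by listed position with every other gene, and their coordinates, host introns and exons and sequences were read from GENCODE release 29 (GRCh38). METTL12 was matched through its RefSeq synonym CSKMT. The named entries and genes follow a rule by class, level and size of change. Members and lists were chosen with earlier results of these data known. The count of entries by chromosomal segment was not made. Sequences of 5 entries were chosen for display, and 1 further sequence and 1 marker gene are not reported here. The calculations were tested on simulated data. Values were computed with pandas 2.3.3, numpy 2.4.6 and scipy 1.17.1 in Python 3.11.15, sequences were handled with biopython 1.88, and figures were drawn with matplotlib 3.10.9. Alternatives were pseudocounts of 0.1 and 1, no filter, a minimum mean of 1 FPKM, median-of-ratios scaling, quantile normalization, a threshold of 1.5-fold, 1 entry per position and other definitions of a shared position.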

Additional observations from a re-analysis of the deposited data

How the results depend on the processing

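No paired analysis was possible because the table has 1 value per group, and leaving out each library was not run for the same reason. Entries with a position of their own could not be compared, as there were 0. The counts of 2 entries called higher and 4 called lower stayed within 1.5 times under the pseudocounts, filters, scalings and threshold named in the processing. SNORA57, SNORA58 and SNORA74A are listed at 0 in a group, so these alternatives could hardly undo their calls. Taking 1 entry per position could change nothing, as the 11 positions are distinct. Among entries above 0 in both groups the counts came to 1 and 2, and this restriction was added once values were known. The median log2 fold change of the entries, -0.48, was -0.65 with a pseudocount of 0.1, -0.39 with 1, -0.38 with no filter and with a mean of at least 1 FPKM, -0.49 with median-of-ratios scaling and -0.52 with quantile normalization. It was also -0.38 without SNORA57, likewise added later, and -0.38 among entries above 0 in both groups. The median size of the difference between entry and host, 0.85, was 0.92 and 0.83 with pseudocounts of 0.1 and 1, 0.72 with no filter and 0.98 with a mean of at least 1 FPKM. SNORA73A enters each of these medians with 2 hosts. The filters changed these medians through the entries kept, and the pseudocount through its shrinking of low values. The share of all genes called, 0.853%, was 1.45% and 0.585% with pseudocounts of 0.1 and 1, and 3.70% at 1.5-fold. Scaling was the only choice able to turn the direction of a single entry, and it turned 0 of the 7 entries above 0 in both groups with a mean of at least 0.5 FPKM. Its shifts were too small to do so, and this count carries no support. SNORD17, with the smallest change of the 7, moved from -0.145 to -0.149 with median-of-ratios scaling and to -0.179 with quantile normalization. The unknown depth limits every low entry.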

Other observations

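SNORA73A and SNORA58 have close annotated copies in GENCODE, between which fragments can be split. SNORA73A is 94.1% identical over 204 aligned bases to SNORA73B, which lies at the same listed position in RCC1 and SNHG3. SNORA58 is 87.5% identical over 136 bases to SNORA58B on chromosome 1. SNORA74A has less similar copies, from 70% identical (SNORA74D) to 78.3% (SNORA74C-2). SNORA74D lies at the same listed position as SNORA74A. The copies were not analysed here.

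Other small RNAs are annotated at the same positions. In EIF4A2 GENCODE places SNORA4, SNORA63, SNORD2 and MIR1248 beside SNORA81, and in ATG16L1 it places SCARNA6 beside SCARNA5. SNORA57, with the highest value of the table, also has the highest GC content of the entries, 63.8%, and SNORA81 the lowest, 38.8%.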
